A study of Mus musculus with 6 samples.

Results

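The angiopoietins, the vascular endothelial growth factors (VEGFs) and the receptors of both were followed in mouse mammary tumour cells of wild-type or knockout Slk genotype. They were 9 of the 22180 genes tested, chosen by name: the TIE2 ligands Angpt1 and Angpt2, the VEGF ligands Vegfa, Vegfb and Vegfc, the TIE receptors Tek and Tie1, and the VEGF receptors Kdr and Flt1. All 9 were measured, by 10 probe sets, and for Angpt1, the one gene with a pair of them, the probe set with the higher mean over the 6 arrays was used. The genes were grouped knowing that Angpt1 was lower in knockout cells, so the number of them that changed is a description.

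Angiopoietin-1 is the main activating ligand of TIE2, the receptor tyrosine kinase encoded by Tek, and keeps vessel walls quiescent and tight. Angiopoietin-2 binds the same receptor and acts as a partial agonist or an antagonist depending on context, while TIE1 is a related receptor that modulates TIE2. VEGF-A drives the growth of blood vessels through the KDR receptor, FLT1 holds VEGF-A and VEGF-B with high affinity, and VEGF-C acts mostly on lymphatic vessels. Tumour cells are a known source of VEGF ligands, whereas the receptors are known above all from endothelium.

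Total RNA of 3 wild-type and 3 SLK-knockout samples was hybridised to 1 array each. SLK is a serine/threonine kinase of the Ste20 family. All 6 samples were untreated NeuNDL-derived cells, that is, cells from mammary tumours carrying an activated deletion form of the Neu (ErbB2) receptor, grown in serum with a mammary growth supplement, and the groups differed in their SLK genotype, wild-type or knockout. The design text calls the samples independent and names passages 9, 19 and 29 without tying any to an array. The sources used here do not give the number of lines or clones, the promoter behind the transgene or the deleted part of Slk. Where samples share a line, p-values cover only the spread among samples, which may be technical, and 3 arrays a group limit their precision.

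Values are log2 signals per probe set, and array medians lay between 3.93 and 3.97. Slk itself was at 8.28 ± 0.07 in wild-type and 7.18 ± 0.03 in knockout cells (SD, n = 3 each), lower on every knockout array (log2 fold change -1.10; limma's adjusted p = 0.0021). A Slk signal thus remained in knockout cells, and the arrays do not measure protein. With limma, 72 genes rose and 25 fell in knockout cells at an adjusted p under 0.05 (Benjamini-Hochberg over all 22180 genes). A signal was called dim where it did not exceed the 95th percentile of 1405 probe sets for olfactory and vomeronasal receptors on the same array (3.75 to 3.86), which stand in for genes not expected in these cells. Of 11 mammary epithelial markers 8 exceeded it on all 6 arrays, among them Krt8 (10.32 in wild-type cells) and Krt18 (10.49), while Krt19, Elf5 and Trp63 did so on none. Of 16 endothelial markers 10 were dim on all 6 arrays, Vwf, Emcn, Erg and Cldn5 among them, and 4 exceeded the yardstick on all 6, namely Pecam1 (4.09 in wild-type cells), Egfl7 (4.37), Mmrn2 (4.05) and Ecscr (4.01).

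Among the 9 genes Angpt1 fell in knockout cells, and none of the others passed the threshold. Over all genes 0.437% passed, 0.113% falling and 0.325% rising. At an unadjusted p under 0.05 the count was 3 of 9 (Angpt1, Tek and Kdr), against 10.2% of all genes. The knockout arrays lay wholly below the wild-type arrays for 4 of the 9, namely Angpt1, Tek, Vegfb and Kdr, against 8.1% of all genes, and wholly above them for none, against 8.79% (16.9% in either direction). The median log2 fold change, knockout minus wild-type, was -0.09 for the 9 genes and 0.0038 for all genes.

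**Figure D1:**
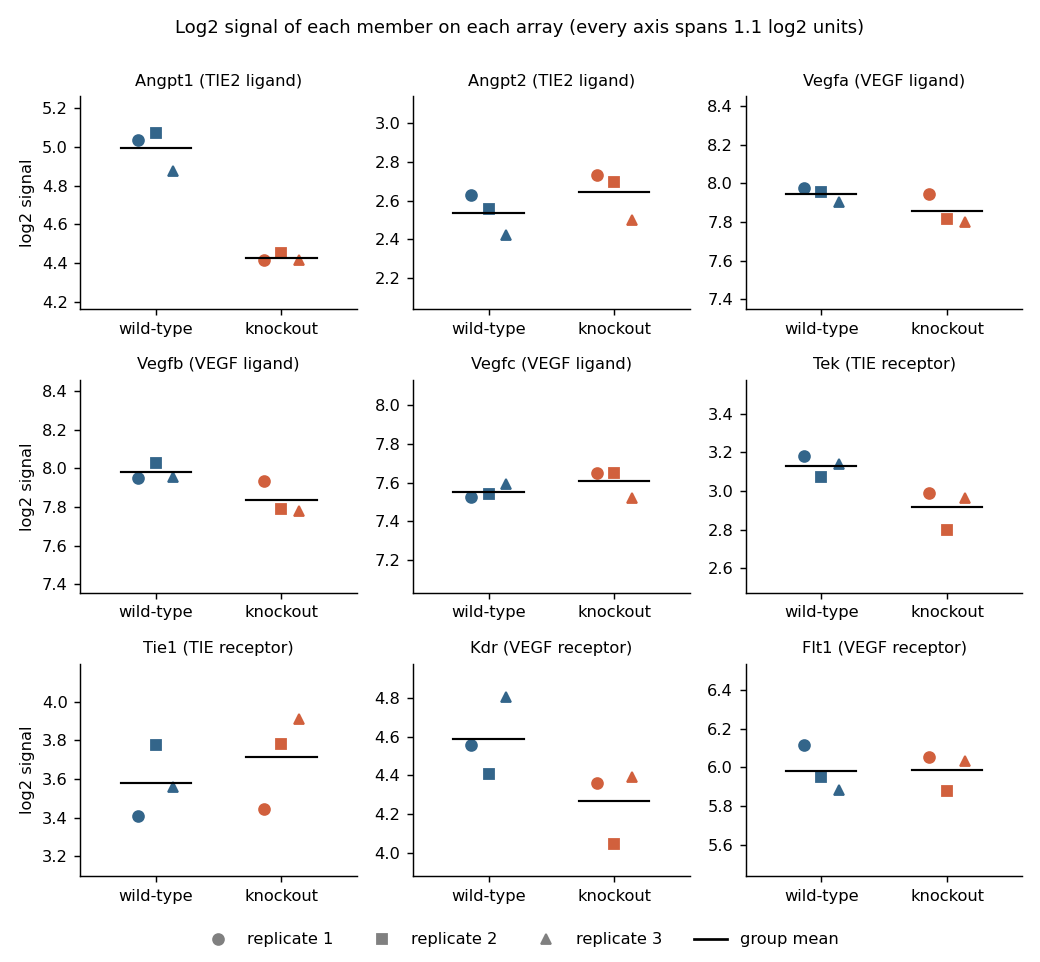
Log2 signal (vertical axis) of the 9 genes on the 3 wild-type (blue) and 3 knockout (orange) arrays, with replicates marked by shape and group means by black lines; each axis spans the same range. The Angpt1 groups are 0.43 apart, those of Tek, Vegfb and Kdr are separated by 0.08, 0.02 and 0.02, and the other genes overlap.

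Angpt1 (probe set 17316780) read 5.04, 5.07 and 4.88 on wild-type arrays 1 to 3. On knockout arrays 1 to 3 it read 4.42, 4.45 and 4.42. Every knockout array was below every wild-type array, by at least 0.43, and the knockout arrays were closer to each other than the wild-type arrays were. The means were 4.995 ± 0.10 and 4.43 ± 0.02 (SD, n = 3 each), a log2 fold change of -0.57 (SE 0.06, 95% interval -0.72 to -0.41), so the knockout signal was 67.5% of the wild-type signal. This gave limma's adjusted p = 0.028, rank 57 of all genes by p. The signal exceeded 97.7% to 99.4% of the chemosensory receptor probe sets in both groups, so Angpt1 was above that yardstick on all 6 arrays. Leaving out any 1 array ended the call, with limma's adjusted p between 0.054 (without wild-type 3) and 0.14 (without knockout 1), while the log2 fold change stayed between -0.63 and -0.53. In bulk RNA, fewer cells that express a gene and less of its RNA per cell cannot be told apart.

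The other Angpt1 probe set, 17311312, did not show the change. It read 2.58, 2.50 and 2.55 in wild-type and 2.55, 2.28 and 2.51 in knockout cells, with overlapping groups. Its log2 fold change was -0.10 (SE 0.08; limma's adjusted p = 0.76 over all 23521 probe sets with 1 symbol). It was dim on all 6 arrays, above 64.6% to 76.1% of the chemosensory receptor probe sets. Taking the mean of the pair gave a change of -0.33 and no call (limma, adjusted p = 0.096).

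**Figure D2:**
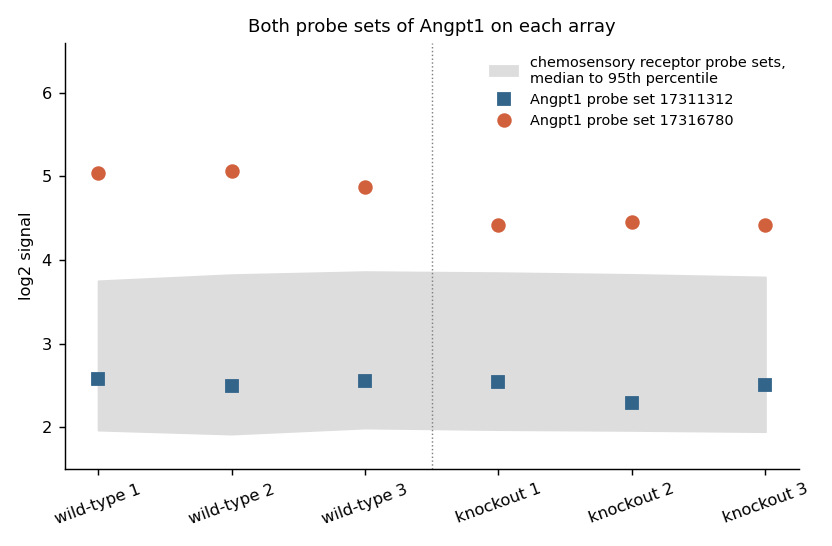
Log2 signal of both Angpt1 probe sets (orange circles 17316780, blue squares 17311312) on the 6 arrays, with the median to 95th percentile of the chemosensory receptor probe sets in grey. The orange values are above the grey band on all arrays and lower in the 3 knockout arrays, and the blue values lie inside the band on all 6.

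In tissues angiopoietin-1 is made largely by pericytes, smooth muscle and other mesenchymal cells, and markers of these cells were read beside it. Of 12 pericyte and smooth muscle markers 1 fell and none rose, against 0.113% and 0.325% of all genes. At an unadjusted p under 0.05 (limma) the count was 3 of 12, against 10.2% of all genes. The marker that fell was Pdgfrb, the platelet-derived growth factor receptor of pericytes. It went from 7.33 ± 0.04 to 6.67 ± 0.04 (SD, n = 3 each), with limma's adjusted p = 0.0066. Acta2 (smooth muscle actin) had a log2 fold change of -0.47 (limma, adjusted p = 0.055) and Mcam one of -0.28 (adjusted p = 0.13), and for these 3 genes no knockout array reached a wild-type one. Over all genes 8.1% were lower on every knockout array. The summed linear signal of the 12 markers was 563 to 578 on wild-type and 422 to 458 on knockout arrays. Without Pdgfrb and Acta2 the sum of the other 10 was 195 to 199 and 172 to 192. Myh11, Cspg4 and Notch3, above the yardstick on all 6 arrays, had log2 fold changes of 0.0024, -0.02 and -0.05, and Rgs5, Des and Abcc9 were dim on all 6. For 10 fibroblast markers the summed signal ran from 612 to 652 in wild-type and from 658 to 678 in knockout cells. None of the 10 passed (limma; 5 at an unadjusted p under 0.05, against 10.2% of all genes), and they did not move one way. Dcn, Postn and Pdgfra were higher on every knockout array (log2 0.43, 0.37 and 0.10), the collagen genes Col1a1, Col1a2 and Col3a1 were lower on every one (-0.33, -0.19 and -0.19), and Lum, Fap and Dpt were dim on all 6. The part of such cells in the Angpt1 result was not tested. Without wild-type 2, Pdgfrb lost its call (limma, adjusted p = 0.0503).

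Angpt2 (probe set 17507799), the context-dependent TIE2 ligand, read 2.63, 2.56 and 2.42 in wild-type cells. In knockout cells it read 2.73, 2.69 and 2.50, within reach of the wild-type arrays. The log2 fold change was 0.11 (SE 0.09; limma's adjusted p = 0.74), with a 95% interval from -0.10 to 0.31. Angpt2 was dim on all 6 arrays, so no level above that yardstick was measured.

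Tek (17415469), which encodes the TIE2 receptor, read 3.18, 3.07 and 3.14 in wild-type and 2.99, 2.80 and 2.96 in knockout cells. No knockout array reached a wild-type one, yet the groups were only 0.08 apart and the log2 fold change of -0.22 (SE 0.07) did not pass (limma, adjusted p = 0.36). Tek was dim on all 6 arrays, above 80.4% to 89.4% of the chemosensory receptor probe sets. Tie1 (17429206), the partner receptor, read 3.41, 3.78 and 3.56 in wild-type and 3.45, 3.78 and 3.91 in knockout cells. The Tie1 groups overlapped, with a log2 fold change of 0.13 (SE 0.14; limma's adjusted p = 0.81), and the signal exceeded the yardstick on 1 of the 6 arrays, knockout 3.

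The VEGF ligands were far brighter than the yardstick on every array, and none passed the threshold. Vegfa (17345293), the main driver of blood vessel growth, read 7.98, 7.95 and 7.90 in wild-type and 7.95, 7.82 and 7.80 in knockout cells. Knockout 1 lay among the wild-type arrays, and knockout 2 and 3 lay below them. The log2 fold change was -0.09 (SE 0.06; limma's adjusted p = 0.68), and its 95% interval, -0.23 to 0.05, placed the knockout level between 0.85 and 1.04 times the wild-type level. Vegfb (17362197), a ligand of FLT1, read 7.95, 8.03 and 7.96 in wild-type and 7.93, 7.79 and 7.78 in knockout cells. As for Vegfa, knockout 1 was the highest of the knockout arrays, here 0.02 below the lowest wild-type array. The log2 fold change was -0.14 (SE 0.06; limma's adjusted p = 0.50). Vegfc (17501160), the lymphatic ligand, read 7.53, 7.54 and 7.59 in wild-type and 7.65, 7.65 and 7.52 in knockout cells. The Vegfc groups overlapped through knockout 3, with a log2 fold change of 0.06 (SE 0.06, 95% interval -0.08 to 0.19; limma's adjusted p = 0.80).

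Kdr (17448924), the principal signalling receptor for VEGF-A, read 4.56, 4.41 and 4.80 in wild-type and 4.36, 4.05 and 4.39 in knockout cells. The groups were separated by 0.02, with knockout 2 the lowest array, as it was for Tek. The log2 fold change of -0.32 was the second largest of the 9 in size but had an SE of 0.13 and did not pass (limma, adjusted p = 0.48). Kdr exceeded the yardstick on all 6 arrays, above 96.3% to 98.6% of the chemosensory receptor probe sets. Flt1 (17455346), the high-affinity receptor and decoy, read 6.11, 5.95 and 5.88 in wild-type and 6.06, 5.88 and 6.03 in knockout cells. The Flt1 groups overlapped fully, with a log2 fold change of 0.01 (SE 0.08; limma's adjusted p = 0.99) and a 95% interval from -0.19 to 0.20.

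Markers of vessels were read for the receptors. None of 16 endothelial markers passed with limma (3 at an unadjusted p under 0.05), with Robo4, dim on all 6 arrays, at log2 0.23 and Sox17 at 0.22. The summed linear signal of the 16 was 195.1 to 204.4 in wild-type and 203.9 to 211.5 in knockout cells. These ranges overlapped. None of 5 lymphatic endothelial markers passed (0 at an unadjusted p under 0.05), with Lyve1 at 0.14 and Prox1 at 0.10. Their sums were 59.1 to 66.6 and 62.7 to 69.5, and Prox1, Reln and Mmrn1 were dim on all 6 arrays. Of 9 leukocyte and 4 platelet markers none passed (2 and 1 at an unadjusted p under 0.05), with Tyrobp at 0.29, Fcer1g at 0.26, Ppbp at -0.37 and Gp9 at 0.23. Of the leukocyte markers 2 of 9 exceeded the yardstick on all 6 arrays (Cd68, 7.15 in wild-type cells, and Fcer1g), and 6 were dim on all 6, Ptprc and Adgre1 among them. Of the platelet markers 2 of 4 exceeded it on all 6 (Ppbp and Itga2b), and Pf4 was dim on all 6. Summed signals were 213 to 225 and 212 to 232 for leukocyte markers and 78.9 to 83.2 and 73.8 to 77.4 for platelet markers. Among the platelet markers only Ppbp was lower in knockout cells, while Pf4, Itga2b and Gp9 had log2 fold changes of 0.13, 0.03 and 0.23. Of the 11 mammary epithelial markers 7 had an unadjusted p under 0.05, 3 were higher and 5 lower on every knockout array, and 2 passed. The shares over all genes were 10.2%, 8.79%, 8.1% and 0.437%. The basal keratin Krt14 fell by 0.66 and Cdh1 (E-cadherin) by 0.43 log2 units (limma, adjusted p = 0.0096 and 0.022). The luminal keratins Krt8 and Krt18 were higher on every knockout array, with log2 fold changes of 0.15 and 0.14 (limma, adjusted p = 0.37 and 0.40), and the sums were 3853 to 3948 in wild-type and 3910 to 3994 in knockout cells. Without any 1 array Cdh1 lost its call, and so did Krt14 except without wild-type 1, while the mean of the Cdh1 probe sets gave -0.27 (limma, adjusted p = 0.45).

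A list of 75 other genes of the pathway, 70 of them measured, put the 9 in context. Of the 70, 3 rose and none fell, against 0.325% and 0.113% of all genes. At an unadjusted p under 0.05 (limma) the count was 21, against 10.2% of all genes. The list was brighter than the array, with 61 of 70 above the yardstick on all 6 arrays against 12311 of 22180. The counts are description, and no test of the list was run. The genes that rose among 12 other ligands and ligand-binding proteins were Timp3 and Col18a1. Of the 12, 5 were higher and 2 lower on every knockout array, against 8.79% and 8.1% of all genes. The 2 that were lower, Thbs2 and Ccn2, had log2 fold changes of -0.30 and -0.23 (limma, adjusted p = 0.37 and 0.23). Thbs1 and Adamts1 had -0.0006 and -0.07. Timp3, a matrix-bound protease inhibitor that also blocks the binding of VEGF to KDR, read 5.02, 4.91 and 5.002 in wild-type and 5.76, 5.96 and 5.92 in knockout cells. The 3 knockout arrays were all above the wild-type arrays, with a log2 fold change of 0.90 (SE 0.07, 1.87-fold; limma's adjusted p = 0.0072). Col18a1, whose collagen chain is the source of the fragment endostatin, read 7.18, 7.11 and 7.23 in wild-type and 7.81, 7.94 and 7.82 in knockout cells. It was likewise higher on each knockout array, with a log2 fold change of 0.69 (SE 0.06, 1.61-fold; limma's adjusted p = 0.011).

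**Figure D3:**
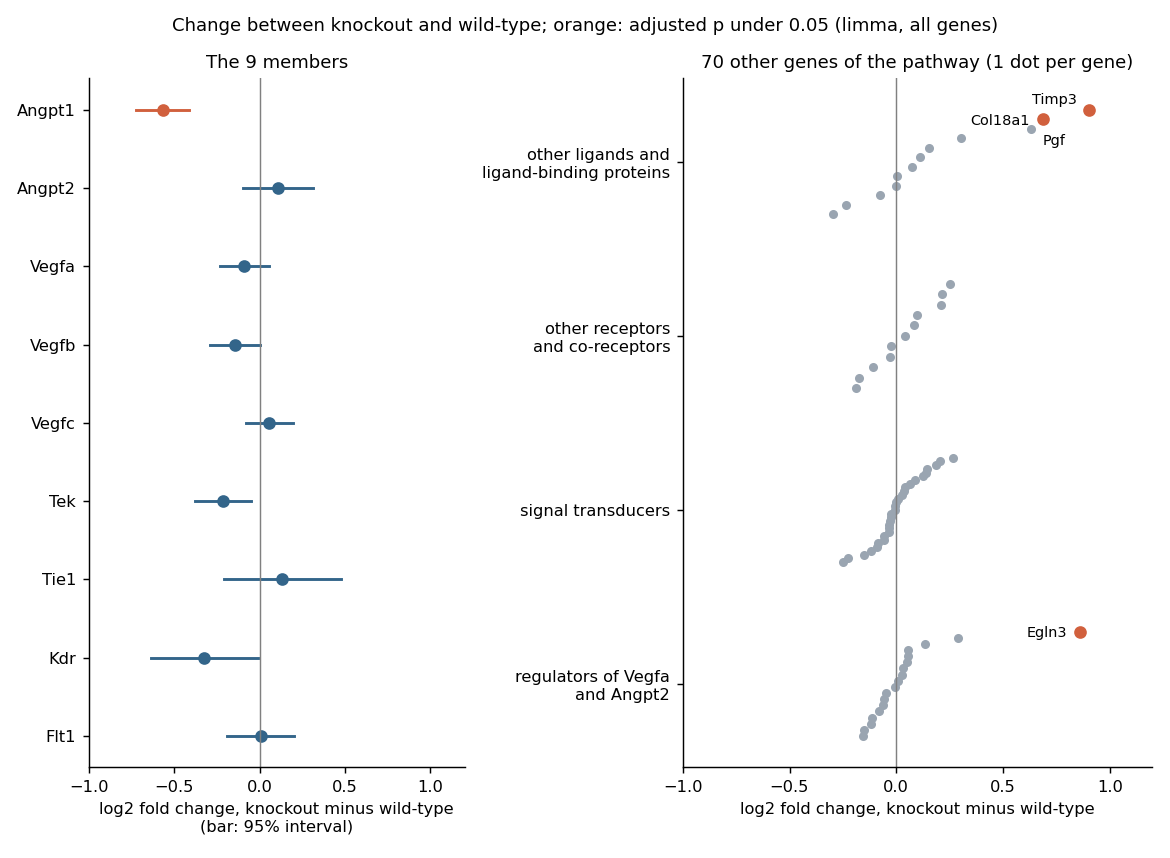
Log2 fold change, knockout minus wild-type, of the 9 genes with 95% intervals (left) and of 70 other pathway genes by role, 1 dot per gene (right); orange marks genes past the adjusted threshold. Angpt1 is the orange gene on the left at -0.57, and Timp3, Col18a1 and Egln3 are the orange genes on the right, at 0.90, 0.69 and 0.86.

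Pgf, the placental growth factor and another FLT1 ligand, was singled out after its values were seen. It read 3.57, 4.02 and 3.96 in wild-type and 4.58, 4.42 and 4.45 in knockout cells. Pgf exceeded the yardstick on 5 of the 6 arrays and was dim on wild-type 1, so its wild-type level lay near that yardstick. The groups did not overlap, but the log2 fold change of 0.63 had an SE of 0.12 and did not pass (limma, adjusted p = 0.13). Other ligands chosen in the same way, Vegfd, a lymphatic ligand, and Angpt4, a further angiopoietin, had log2 fold changes of 0.07 and 0.31 (limma, adjusted p = 0.76 and 0.43).

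None of 11 other receptors and co-receptors passed (limma; 5 at an unadjusted p under 0.05, against 10.2% of all genes). Nrp1, the neuropilin that binds VEGF-A beside KDR, read 7.95, 7.97 and 8.01 in wild-type and 7.80, 7.78 and 7.78 in knockout cells. Its knockout arrays were all lower, by little, with a log2 fold change of -0.19 (SE 0.05; limma's adjusted p = 0.23). Itga5, an integrin chain that pairs with beta-1 integrin, had 0.25 (SE 0.05; limma's adjusted p = 0.13). None of 29 signal transducers passed either (limma; 6 at an unadjusted p under 0.05). Pik3r1, the regulatory subunit through which TIE2 and other receptors engage PI3-kinase, had a log2 fold change of -0.25 and Src, a kinase downstream of KDR, one of 0.27 (limma, adjusted p = 0.12 and 0.13).

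Of 18 regulators of Vegfa and Angpt2 transcripts 1 rose and none fell, against 0.325% and 0.113% of all genes. At an unadjusted p under 0.05 (limma) the count was 3, against 10.2%. Of the 18, 2 were higher and 6 lower on every knockout array, against 8.79% and 8.1% of all genes. The gene that rose was Egln3, a prolyl hydroxylase that marks hypoxia-inducible factors for destruction and is itself induced by them. Egln3 read 6.25, 6.34 and 6.36 in wild-type and 7.18, 7.07 and 7.28 in knockout cells. Every knockout array was above every wild-type array, with a log2 fold change of 0.86 (SE 0.07, 1.82-fold; limma's adjusted p = 0.0083). Without wild-type 3 or without knockout 3 Timp3 lost its call (limma, adjusted p = 0.054 and 0.055). Col18a1 lost it without any 1 array (0.054 to 0.066), and Egln3 without any wild-type array or knockout 1 (0.052 to 0.066).

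Vegfa and Egln3 are well-known targets of the hypoxia-inducible factors, and their promoters are shown side by side. Each is the 250 bases before the RefSeq start on GRCm38.p6, on the gene's own strand. Capitals mark matches to ACGTG or GCGTG, the core of the factors' binding motif, on either strand (CACGT and CACGC read the other strand). The Vegfa window is chr17:46032378-46032627 and the Egln3 window chr12:54203875-54204124, both on the minus strand.
Vegfa: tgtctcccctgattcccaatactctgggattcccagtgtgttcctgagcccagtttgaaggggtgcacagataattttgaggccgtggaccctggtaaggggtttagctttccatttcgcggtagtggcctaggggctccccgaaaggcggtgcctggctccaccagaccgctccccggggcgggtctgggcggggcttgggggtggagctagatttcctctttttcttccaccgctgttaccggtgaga
Egln3: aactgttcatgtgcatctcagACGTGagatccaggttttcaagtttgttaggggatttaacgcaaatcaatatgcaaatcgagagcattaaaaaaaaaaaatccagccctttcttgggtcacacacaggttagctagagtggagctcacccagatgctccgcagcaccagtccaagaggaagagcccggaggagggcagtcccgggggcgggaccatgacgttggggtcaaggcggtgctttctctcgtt
The Egln3 window held 1 match and that of the first Vegfa start none, which says only that these letters are not in this window. Sites outside these 250 bases were not looked for, and a link between matches and the change of either gene was not tested. Such a match was present in 38.6% of the 32851 windows of this length in the RefSeq table. In the other windows, Timp3 held 1, Vegfb and Kdr held 2 each, Flt1 held 1, the more upstream of the Pgf starts held 1, and Tek, Tie1, Vegfc and Col18a1 held none. The window of a second Vegfa start held 2, but it lies downstream of the first start on this minus-strand gene (chr17:46025164-46025413). These matches are therefore not upstream of both starts.

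The genes whose values followed Angpt1 most closely over the 6 arrays were Pck2 (Pearson's r 0.998), Zfp235 (0.998), Crtc3 (0.996), Proser2 (0.995) and Pxk (0.994). All 5 were lower in knockout cells, by 0.10 to 0.30 log2 units, and none passed the threshold, with limma's adjusted p between 0.080 (Zfp235) and 0.53 (Pxk). The 6 points fall into the genotype groups, and 141 of 19394 named genes had r above 0.95.

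**Figure D4:**
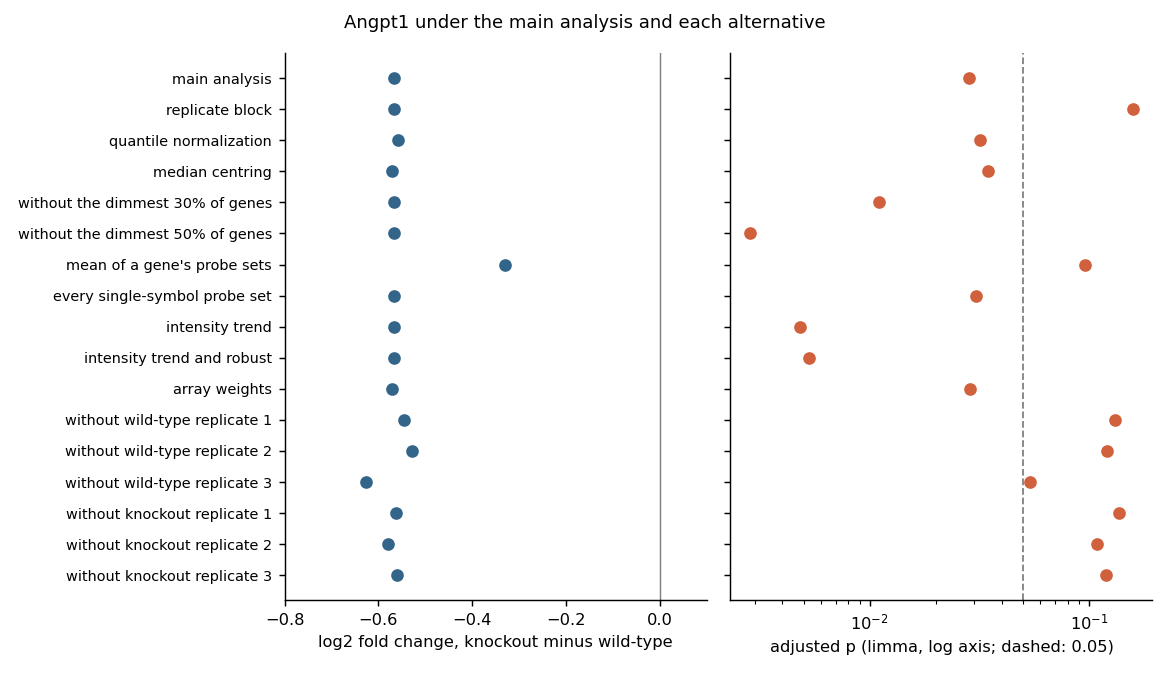
Log2 fold change of Angpt1, knockout minus wild-type (left), and its adjusted p on a log axis (right) under the main analysis and 16 alternatives; the dashed line is 0.05. The fold change is negative throughout, and the adjusted p is right of the line for the replicate block, the averaged probe sets and each left-out array.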

How the data were processed

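Expression was measured on 6 one-colour arrays of biotin-labelled total RNA, grouped by sample title. The authors deposited 1 table of log2 values for 41345 probe sets, made with Affymetrix Expression Console 1.4.1.46 per the submitters' processing notes; the sources used here do not give its background correction, normalization, summarisation or log base. The values were taken as log2 because natural logs of 16-bit intensities end at 11.1 and the highest value was 12.4. Differences of dim genes are compressed in such data, and detection calls were not used. Probe sets with 1 symbol in the platform annotation (23521) entered; those with several (1814) or not listed (16010) did not. Of the single-symbol sets 23328 matched a RefSeq gene of GRCm38.p6 by identifier, and the set with the highest mean was kept per symbol. The files name no build; promoter sequences and their coordinates are RefSeq's, and Angpt1 and Angpt2 had no entry among them.

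Knockout was compared with wild-type by limma 3.58.1, run in R 4.3.3, with lmFit and eBayes (no trend, two-sided, Benjamini-Hochberg over 22180 genes, threshold 0.05, no filter); the fit was tested on simulated data. Intervals are limma's, at 95%. The members and lists were chosen with earlier results of these data known. Genes named are the 9 members, Slk, every list gene past the threshold or else the 2 with the smallest p in a list, and the 5 most like Angpt1 (without Gm and Rik symbols); other genes named were chosen after their values were seen. Summed signals add 2 to the power of the log2 value. Of the 146 list genes 137 were measured. Alternatives were a replicate block, filters on the dimmest 30% or 50% of genes, quantile normalization or centring on medians, averaging or keeping all single-symbol probe sets, an intensity trend (alone or robust), weighting of arrays, and dropping each array in turn. Arrays correlated at r of 0.990 to 0.994, and none was counted as a repeat of another.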

Additional observations from a re-analysis of the deposited data

How the results depend on the processing

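The Angpt1 change kept its sign in all 16 alternatives and its call in 8. It lost the call with the replicate block (log2 -0.57, adjusted p = 0.16), with the mean of its probe sets (-0.33) and without any 1 array (-0.63 to -0.53). The count of the 9 genes called was then 0 with the block, with the mean and with any array left out (0 to 0; limma, 3 of 9 at an unadjusted p under 0.05 with the block and with the mean, 1 to 3 with an array left out), and 1 otherwise. Genes called overall went from 97 to 6 with the block, 206 and 341 without the dimmest 30% and 50%, 441 with an intensity trend, 443 with trend and robust estimation, and 16 to 28 with 1 array left out. Of the other pathway genes, 0 were called with the block (limma; 17 at an unadjusted p under 0.05), 7 without the dimmest 50%, 11 with a trend, 11 with trend and robust estimation and 0 to 2 with 1 array left out. Of the cell type markers, 0 were called with the block (20 at that p), 6 and 9 without the dimmest 30% and 50%, 12 with a trend, 12 with trend and robust estimation, and 0 to 2 with 1 array left out. Fewer genes enter after a filter and fewer arrays after leaving one out; otherwise the cause was not tested. Over all genes same-numbered samples did not deviate together (r of 0.04, 0.02 and -0.07), and the labels do not say what the numbers share. Among the members the block lowered the SE of Kdr from 0.13 to 0.07 (limma, adjusted p = 0.32). It lowered that of Angpt2 from 0.09 to 0.05 and that of Tie1 from 0.14 to 0.09. The SE rose for Vegfb (0.062 to 0.068) and Vegfc (0.058 to 0.067). Whether the numbers follow passage was not tested. Flt1 changed sign with 1 array left out (-0.045 to 0.071), and the other 7 members kept theirs. With 3 arrays a group and dim signals for Angpt2, Tek and Tie1, small changes in these genes could not be seen.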

Other observations

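The Angpt1 probe sets differ in where their numbers fall. For probe set 17316780, which carried the change, the 20 nearest probe sets by number with a RefSeq promoter entry (GRCm38.p6) all belonged to genes of chromosome 15 on the minus strand (20 of 20). For the dim probe set 17311312 the 20 nearest were on chromosome 15 too, and all belonged to genes on the plus strand (20 of 20). The sources used here do not state which strand either probe set reads, and whether this bears on their difference was not tested.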
